A study of Mus musculus with 12 samples.

Results

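The respiratory chain is the set of inner-membrane complexes by which mitochondria pass electrons from NADH and succinate to oxygen and make ATP. The genes described here are its subunits that are encoded in the nucleus. They were taken by gene symbol as the subunits of complex I (NADH dehydrogenase, Nduf genes), complex II (succinate dehydrogenase, Sdh genes), complex III (cytochrome c reductase, Uqcr genes and Cyc1), complex IV (cytochrome c oxidase, Cox genes) and complex V (ATP synthase, Atp5 genes). Of 33188 genes measured, 92 matched the symbols, 9 of these were named as pseudogenes and left out, and 83 remained: 36 of complex I, 4 of complex II, 9 of complex III, 17 of complex IV and 17 of complex V. In all, 82 of the 83 had enough counts to be tested, with Cox8b the exception. The symbols choose no gene by its level or change.

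RNA was measured by strand-specific sequencing in kidneys of mice with genotype WT, in 3 groups of 4 libraries. XZSW was the hyperuricemia model given Xin-Zi-Sheng-Wan decoction. HUA was the model alone, induced with potassium oxonate, which inhibits uricase, and hypoxanthine, a purine that the body turns into uric acid. CTL was the control group without the model. The sources used here give no dose, duration, age, sex or strain. HUA and XZSW thus share both model agents, and XZSW differs from HUA by the decoction. Whether the 4 libraries of a group stem from separate animals is not labelled; p-values therefore reflect only how far these libraries scatter, and that scatter may be technical. HUA and XZSW columns were told apart only by a letter in the sample descriptions.

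The proximal tubule of the kidney reabsorbs salt, sugar, amino acids and urate with ATP that comes mostly from mitochondria, and it holds more mitochondria than most cell types. Electrons enter at complex I or II, pass through coenzyme Q to complex III and through cytochrome c to complex IV, while complexes I, III and IV pump protons that drive complex V. Complexes I, III, IV and V also hold subunits made from the mitochondrial genome; complex II is wholly nuclear. Many nuclear subunit promoters are known binding places of NRF1, ETS factors such as GABP (also called NRF2), YY1 and the estrogen-related receptors (ERR), which work with the PGC-1 coactivators.

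Promoter sequences are shown for 1 gene of each complex to show the letters searched for in the promoters of the subunit genes. RefSeq's promoter table (GRCm38.p6) had an entry, 250 bases before and 50 after the annotated start, for 67 of the 83 genes. Each gene shown is the one of its complex with the smallest p in HUA against CTL among those with an entry and a match that lies whole within the printed bases. Printed are 150 bases upstream of the start, 5′ to 3′ on the gene's strand (minus for all of them). They end at the RefSeq start for Ndufv2, Uqcrh and Atp5g3, and 40 and 23 bases before it for Sdha and Cox6a1, whose GENCODE start lies further upstream. Capitals mark a match to NRF1, ETS or ERR letters on either strand. Positions are chr17:66101560-66101709 for Ndufv2, chr13:74350281-74350430 for Sdha, chr4:116075071-116075220 for Uqcrh, chr5:115348982-115349131 for Cox6a1 and chr2:73911327-73911476 for Atp5g3. The Ndufv2, Sdha and Cox6a1 matches are NRF1 letters, the Uqcrh match is ETS letters read on the other strand, and the Atp5g3 match is ERR letters read on the other strand.
Ndufv2: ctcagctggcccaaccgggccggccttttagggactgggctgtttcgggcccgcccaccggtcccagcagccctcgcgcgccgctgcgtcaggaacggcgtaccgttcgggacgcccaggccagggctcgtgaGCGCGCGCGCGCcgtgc
Sdha: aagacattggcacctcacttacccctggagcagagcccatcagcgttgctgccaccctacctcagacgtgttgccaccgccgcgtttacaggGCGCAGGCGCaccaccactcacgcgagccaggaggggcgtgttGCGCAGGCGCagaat
Uqcrh: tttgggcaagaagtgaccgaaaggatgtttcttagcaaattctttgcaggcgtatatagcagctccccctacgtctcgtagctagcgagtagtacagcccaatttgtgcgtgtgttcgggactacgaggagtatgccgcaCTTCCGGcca
Cox6a1: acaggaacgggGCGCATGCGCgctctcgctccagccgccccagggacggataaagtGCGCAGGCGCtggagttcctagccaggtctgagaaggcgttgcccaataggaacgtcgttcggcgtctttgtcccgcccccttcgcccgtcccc
Atp5g3: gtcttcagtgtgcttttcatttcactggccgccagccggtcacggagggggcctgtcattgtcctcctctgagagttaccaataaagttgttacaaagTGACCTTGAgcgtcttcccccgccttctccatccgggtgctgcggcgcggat

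The 300 bases of each entry were searched on both strands, and a gene counts if any of its entries holds a match. NRF1 letters (GCGC, any 2 bases, then GCGC) were found for 18 of 67 subunit genes (26.9%), against 7.0% of all 27025 genes with an entry. ETS letters (CCGGAAG) were in 17 (25.4%), against 9.93% of all. YY1 letters (AAGATGGC) were in 10 (14.9%), against 3.19%. ERR letters (TCAAGGTCA) were in 2 (3.0%), against 0.47%; these were Sdhd and Atp5g3. At least 1 of the 4 was found for 39 subunit genes (58.2%), against 18.25% of all. By complex it was in 18 of 32 of complex I, 3 of 3 of complex II, 3 of 5 of complex III, 3 of 12 of complex IV and 12 of 15 of complex V. The NRF1 letters can overlap themselves, as in Ndufv2, and a match is a run of letters, not a shown binding site.

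Library totals were 51.6 to 74.3 M counts. The subunit genes together took 1.37 to 1.89% of counts in XZSW, 1.26 to 1.67% in HUA and 1.62 to 1.76% in CTL. The libraries fell into kinds that cross the groups. In HUA2, HUA3, HUA4, XZSW3 and XZSW4, GC-rich genes were higher against the CTL mean, by 0.24 to 0.379 log2 units per 10% of GC content, while in the other 7 libraries this slope was -0.0796 to 0.0546. In HUA1, XZSW1 and XZSW2 longer genes were higher, by 0.208, 0.139 and 0.103 log2 units per doubling of exon length, against -0.0595 to 0.0432 in the other 9. Counts below are therefore also given without these libraries or with these trends removed. The kidney label was checked with 8 proximal tubule markers, whose summed level was 7781 to 10580 CPM in XZSW, 1608 to 5257 CPM in HUA and 8627 to 11260 CPM in CTL.

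In HUA kidneys the subunit transcripts of complexes I, II, III and V were lower than in CTL in many genes at once. With levels in CPM, scaled by TMM, and edgeR's quasi-likelihood test, 33 of 82 fell in HUA against CTL and 0 rose, at an adjusted p under 0.05 over 19772 genes. That is 40.24% of the subunits, against 12.8% of all tested genes that fell and 14.9% that rose. The median log2 change was -0.41, against 0.06 over all genes, and 79 of 82 values were below 0. All 4 HUA libraries lay below all 4 CTL libraries for 41 of the subunits, against 15.2% of all genes. With library totals in place of TMM, 13 fell and 0 rose, against 6.68% of all genes that fell, and 53 of 82 values were below 0. That scaling moved the median of all genes to 0.39 and of the subunits to -0.07. The distance between both medians was -0.46 under either scaling. A change of scaling shifts all genes nearly alike, so this distance could hardly move and is no check of the scaling.

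The counts differed between the complexes. In complex II 4 of 4 fell, with a median log2 change of -0.76. Complex III had 5 of 9 (median -0.48), complex I 17 of 36 (-0.51) and complex V 7 of 17 (-0.34, near 0 at -0.0036 with library totals). With library totals 2 of 4 fell in complex II, 2 of 9 in complex III, 5 of 36 in complex I and 4 of 17 in complex V; limma gave 2 of 4 for complex II too. Of complex IV 0 of 16 tested subunits fell or rose, with a median of -0.24 that flips to 0.09 with library totals; 13 of the 16 values were below 0. At an unadjusted p under 0.05, 4 of the 16 were lower in HUA (Cox5a, Cox6c, Cox7a2 and Cox7b), against 17.7% of all genes; DESeq2 called 1 of them, Cox7a2, and limma on log2(FPKM + 1) called 0. Over all subunits, 0 were higher at an unadjusted p under 0.05 with edgeR or DESeq2, and 1 was with limma. No test compared the complexes with each other.

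**Figure D1:**
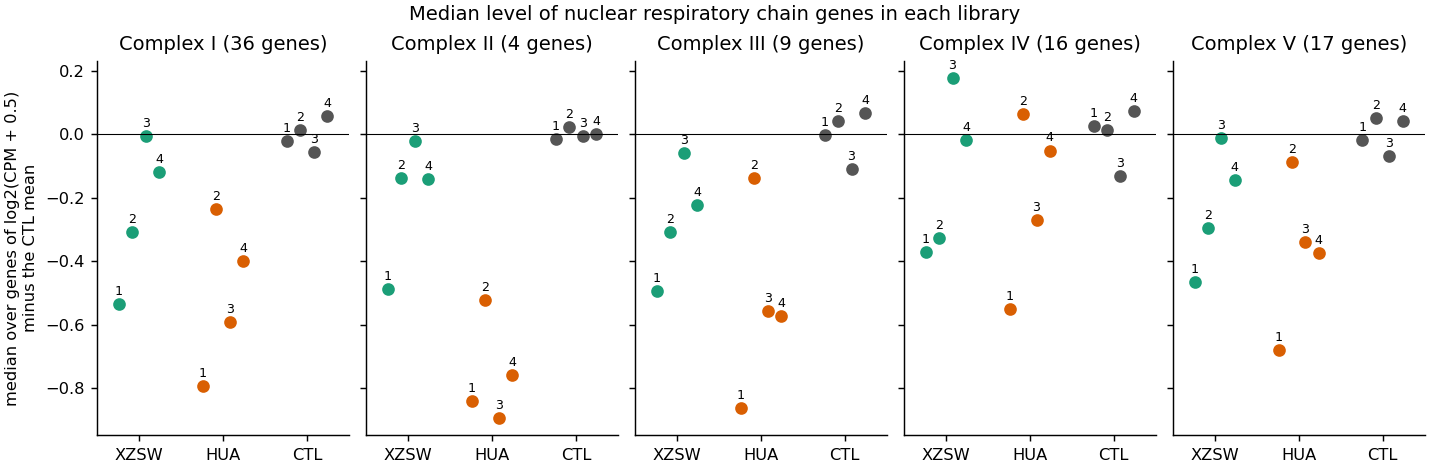
Median level of each complex's tested subunit genes in every library, as log2(CPM + 0.5) minus the CTL mean (vertical axis), for XZSW, HUA and CTL (points numbered by replicate). Complex II stands between -0.89 and -0.52 in HUA, below every XZSW library, while for complex IV the HUA libraries (-0.55 to 0.06) overlap those of CTL (-0.13 to 0.07).

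Library by library, the plot of medians shows how far each complex moved within groups. For complex II, the median difference from the CTL mean was -0.84, -0.52, -0.89 and -0.76 in HUA1 to HUA4, against -0.01 to 0.02 in CTL. For complex IV it was -0.55, 0.06, -0.27 and -0.05 in the same HUA libraries, against -0.13 to 0.07 in CTL. HUA1 was lowest for complexes I, III, IV and V, and HUA2 was highest for every complex. Without HUA1, 24 subunits fell: 12 of complex I, 4 of complex II, 4 of complex III, 0 of complex IV and 4 of complex V. Without HUA2, 36 fell, 2 of them in complex IV: Cox7b (log2 change -0.44, adjusted p = 0.0406) and the rare Cox6a2, which then had 0 counts in every HUA library left. Without the 3 libraries of raised length slope, 34 fell, again 4 of 4 for complex II and 0 of 16 for complex IV. Of all genes 13.8% fell without HUA1, 11.6% without HUA2 and 15.6% without those 3 libraries.

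Complex I oxidises NADH with NDUFV1, NDUFV2 and NDUFS1, and hands the electrons towards coenzyme Q through subunits such as NDUFS3, NDUFS7 and NDUFS8. Ndufs1 (chr1:63143596-63176822, minus strand), which encodes the largest subunit, stood at 182, 182, 118 and 115 CPM in HUA and at 300, 311, 313 and 293 CPM in CTL. Every HUA library was far below every CTL library, and the log2 change was -1.03 (SE 0.17, adjusted p = 0.0008). Ndufv1, the NADH-binding flavoprotein, stood at 170, 205, 156 and 181 CPM in HUA and at 298, 306, 309 and 331 CPM in CTL, a log2 change of -0.80 (SE 0.13, adjusted p = 0.000768).

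Ndufv2, the partner of Ndufv1, averaged 131 ± 14.7 CPM in HUA and 206 ± 1.84 CPM in CTL (mean ± SD, n = 4 here and below; log2 change -0.65). Ndufs3, which lines the way to coenzyme Q, changed by -0.71. Ndufs7 and Ndufs8, which carry the last iron-sulfur clusters of that way, had values of -0.61 (SE 0.22, adjusted p = 0.0579) and -0.51 (SE 0.21, adjusted p = 0.0946). For both, all HUA libraries lay below all CTL libraries, with a spread in HUA of 19.4 and 20.6 CPM on means of 67.1 and 95.3 CPM.

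Of the 29 accessory genes of complex I, 12 fell, with a median of -0.44. Ndufa9, at the joint between the arms of the complex, averaged 126 ± 14.3 CPM in HUA and 217 ± 9.21 CPM in CTL (log2 change -0.79, SE 0.13, adjusted p = 0.000791). Ndufa10 averaged 176 ± 23.2 CPM in HUA and 285 ± 6.28 CPM in CTL (log2 change -0.70). Ndufa8 changed by -0.57 and Ndufb3 by -0.60. Ndufv3, a small subunit bound beside the NADH site, fell by 0.95 on the log2 scale. The other accessory genes that fell were Ndufb5 (-0.71), Ndufb10 (-0.57), Ndufb4 (-0.57), Ndufb9 (-0.54), Ndufa6 (-0.52), Ndufs4 (-0.44) and Ndufa4, given with complex IV. Just over the threshold were Ndufa12, Ndufa13 and Ndufb11, with log2 changes of -0.44, -0.57 and -0.55 (adjusted p = 0.0544, 0.0551 and 0.054). Ndufs6, a zinc-binding subunit, had a log2 change of -0.38 that did not pass (adjusted p = 0.137). At the small end were Ndufb7 and Ndufa7, with log2 changes of -0.05 and -0.09 that did not pass. Exons of 29 of the 83 subunits overlap those of another gene, 26 of them on the opposite strand; the largest share was 39.0% of Ndufb6. Per the labels the libraries kept strand, but the way reads were counted is not given in the sources used here.

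Complex II joins the citric acid cycle to the chain. Sdhb (chr4:140961203-140979193, plus strand), its iron-sulfur subunit, stood at 144, 216, 156 and 170 CPM in HUA and at 303, 308, 295 and 305 CPM in CTL. The highest HUA library stayed below the lowest CTL library (log2 change -0.82, SE 0.15, adjusted p = 0.00156). Sdha, the flavoprotein that oxidises succinate, averaged 419 ± 92.4 CPM in HUA and 728 ± 27.0 CPM in CTL (log2 change -0.80). The membrane anchors Sdhc and Sdhd changed by -0.69 and -0.72. All 4 genes were apart between the groups, and all 4 fell with any 1 of the 12 libraries left out.

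In complex III the large subunits and the small ones differed in their counts of calls. Uqcrc2 (chr7:120635176-120659524, plus strand), a core protein, had the smallest p of all subunits, with 312, 358, 258 and 266 CPM in HUA and 540, 559, 526 and 543 CPM in CTL. The gap between the groups was wider than either group's range (log2 change -0.86, SE 0.13, adjusted p = 0.00055). Uqcrfs1, the Rieske iron-sulfur protein, changed by -0.83, Uqcrc1, the other core protein, by -0.62 and Cyc1, cytochrome c1, by -0.61. Of the 5 small subunits only Uqcrb fell (-0.48, adjusted p = 0.0217). The other 4 had values of -0.19 to -0.43, Uqcr10 among them at -0.38 (SE 0.22).

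Complex V makes ATP in its F1 head, whose alpha and beta subunits are Atp5a1 and Atp5b. Atp5b (chr10:128083273-128090391, plus strand), the catalytic beta subunit, stood at 1742, 1842, 1528 and 1456 CPM in HUA and at 2762, 2726, 2930 and 2835 CPM in CTL. The highest HUA library was well below the lowest CTL library (log2 change -0.78, SE 0.13, adjusted p = 0.00106). Atp5a1 averaged 1149 ± 160 CPM in HUA and 1844 ± 50.4 CPM in CTL (log2 change -0.68). Atp5c1, the gamma subunit of the rotating stalk, changed by -0.74. Atp5pb, the b subunit of the fixed peripheral stalk, changed by -0.79. Atp5j, the coupling factor of that stalk, fell by 0.42 on the log2 scale (adjusted p = 0.0354), while its partners Atp5h and Atp5o had values of -0.31 and -0.26 that did not pass. Atp5d and Atp5e, the delta and epsilon subunits of the rotating stalk, had values of -0.34 and -0.31 that did not pass.

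Of the small membrane subunits of complex V, only Atp5k, the e subunit, fell (-0.70, SE 0.22, adjusted p = 0.0333), at 20.1 ± 4.15 CPM in HUA and 32.5 ± 5.32 CPM in CTL. The c ring that turns with the protons is encoded by 3 genes with the same mature protein. Of these Atp5g3 fell (-0.50, SE 0.15, adjusted p = 0.0218), while Atp5g1 and Atp5g2 had values of -0.26 and -0.04 (adjusted p = 0.396 and 0.919). By length-scaled level in CTL, Atp5g3 was the highest at 128 ± 4.20 FPKM, Atp5g2 stood at 42.3 ± 0.894 and Atp5g1 at 14.1 ± 1.53 FPKM. In CPM, Atp5g3 was at 353 in CTL, while Atp5g2 and Atp5g1 were close, at 89.7 and 87.8. The FPKM distance of these 2 thus comes from their summed exon lengths, 1675 and 4912 bases over all annotated transcripts. The length of the transcripts present was not measured. Atp5g3 and Atp5k lost their calls in 5 and 6 of the 12 fits that each left out 1 library.

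Complex IV reduces oxygen with subunits of the mitochondrial genome, and its nuclear subunits surround them. Cox4i1 (chr8:120668222-120674207, plus strand), the ubiquitous form of the large regulatory subunit, stood at 440, 632, 552 and 621 CPM in HUA and at 601, 609, 580 and 665 CPM in CTL. The groups overlapped, with HUA1 apart from the other HUA libraries, and the log2 change was -0.13 (SE 0.16, adjusted p = 0.593). Cox6a1 stood at 157, 309, 245 and 268 CPM in HUA and at 239, 236, 228 and 254 CPM in CTL (log2 change 0.03, SE 0.21). Cox8a stood at 145, 278, 194 and 205 CPM in HUA and at 223, 217, 197 and 223 CPM in CTL (log2 change -0.06, SE 0.23). In both genes the HUA values ran on either side of CTL.

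Cox5a and Cox5b had log2 changes of -0.34 (adjusted p = 0.116) and -0.22 (adjusted p = 0.386). The most negative value among the 11 ubiquitous subunits was that of Cox7a2 at -0.39 (SE 0.15, adjusted p = 0.0663), and the 11 ran from there to 0.03. Cox7a2 and Cox5a were the members of complex IV whose HUA libraries all lay below CTL. Ndufa4, named for complex I but now placed in complex IV by structural work, fell (-0.48, adjusted p = 0.0403); with it complex IV has 1 of 17. For the 11 ubiquitous subunits a p over the threshold does not show that they were alike in both groups: the standard errors were 0.15 to 0.23.

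**Figure D2:**
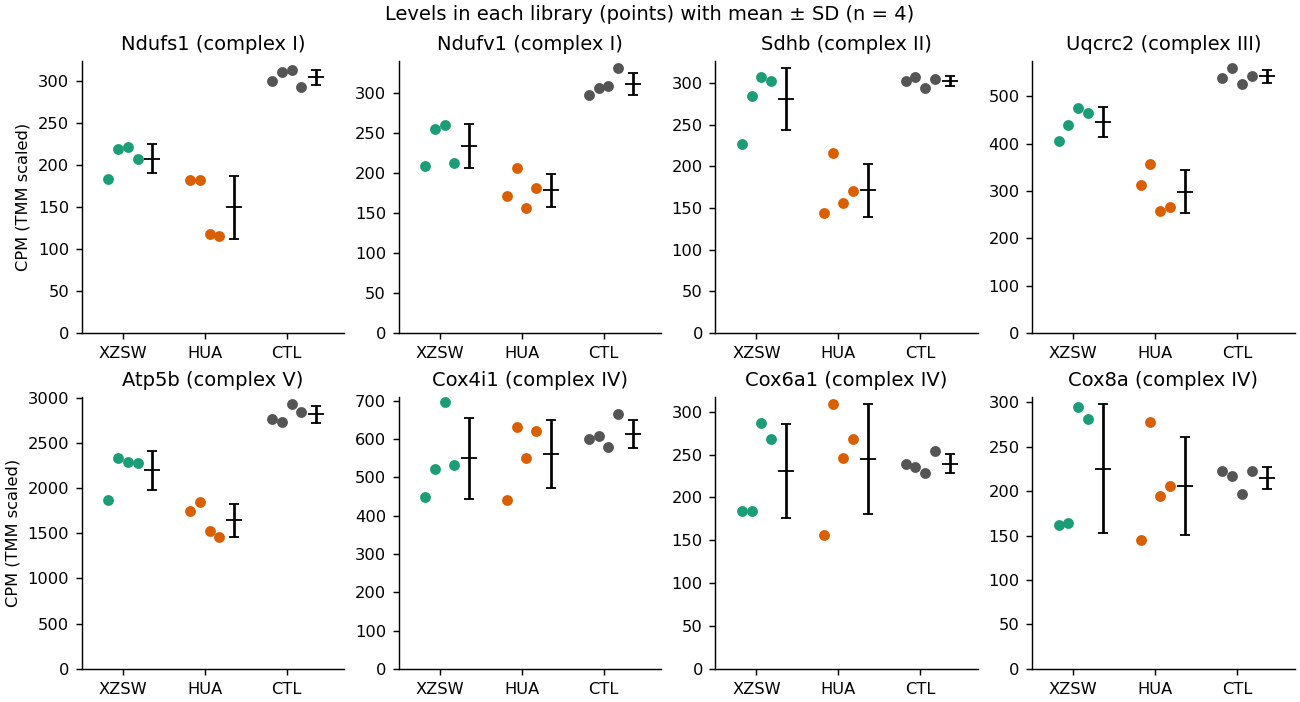
Level of 8 subunit genes in each library (points, CPM with TMM scaling, vertical axis) with mean ± SD of the 4 libraries of XZSW, HUA and CTL. For Ndufs1, Ndufv1, Sdhb, Uqcrc2 and Atp5b every HUA point lies below every CTL point, while for Cox4i1, Cox6a1 and Cox8a the HUA points overlap CTL.

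Several complex IV subunits have a second gene for muscle, testis or hypoxia-related forms, and in every pair the ubiquitous form was the higher one per length. Per length, Cox4i1 stood at 329 ± 72.9 FPKM in XZSW, 365 ± 57.6 in HUA and 313 ± 25.8 in CTL, and Cox4i2, the lung form, at 0.697 ± 0.491, 0.292 ± 0.12 and 0.275 ± 0.299 FPKM in the same order. Cox6a1 was at 270 ± 19.4 FPKM in CTL and the muscle form Cox6a2 at 0.873 ± 0.197. Cox6b1 was at 227 ± 14.9 FPKM in CTL and the testis form Cox6b2 at 2.18 ± 0.905. The muscle form Cox7a1 was at 4.33 ± 0.717 FPKM in CTL, against 123 ± 5.94 for Cox7a2 and 57.8 ± 4.46 for Cox7a2l, a subunit-like protein that joins complexes III and IV.

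With edgeR on all 12 libraries 0 of the 5 tested alternative forms were called in any comparison. Cox6a2 was called in 3 alternatives each of HUA against CTL and XZSW against HUA, and Cox7a1 in 4 of XZSW against HUA. Cox6b2 had a log2 change of 0.50 in HUA against CTL (adjusted p = 0.299) and -0.82 in XZSW against HUA (adjusted p = 0.119); without HUA1 the second value was -1.04 and passed (adjusted p = 0.0437). Cox7a1 had -0.44 in HUA against CTL (adjusted p = 0.258) and 0.70 in XZSW against HUA (adjusted p = 0.0992). Cox6c2 is annotated as a processed pseudogene and stood at 0.498 to 1.08 CPM over the 12 libraries. Cox8b, a muscle and brown fat form, was listed at 0.499 CPM in XZSW1 and at 0 to 0.179 CPM in the other 11 libraries. Muscle markers summed to 1.05 to 2.80 CPM in XZSW, 0.974 to 2.08 in HUA and 1.31 to 2.16 in CTL. The brown adipocyte markers reached 17.4 CPM in XZSW at most, in XZSW1. They include the coactivator Ppargc1b, which fell in HUA and rose in XZSW against HUA, so their sum does not stand for brown fat alone.

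In XZSW against HUA, 18 subunits rose (21.95%) and 0 fell, against 7.09% of all tested genes that rose and 8.34% that fell. The median log2 change was 0.22, against 0.01 over all genes. By complex, 8 of 36 rose in complex I, 2 of 4 in complex II, 4 of 9 in complex III, 0 of 16 in complex IV and 4 of 17 in complex V. All 4 XZSW libraries lay above all 4 HUA libraries for 15 subunits, against 8.98% of all genes. This comparison and the one of HUA with CTL share the HUA libraries, so their values are given side by side and are not independent.

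**Figure D3:**
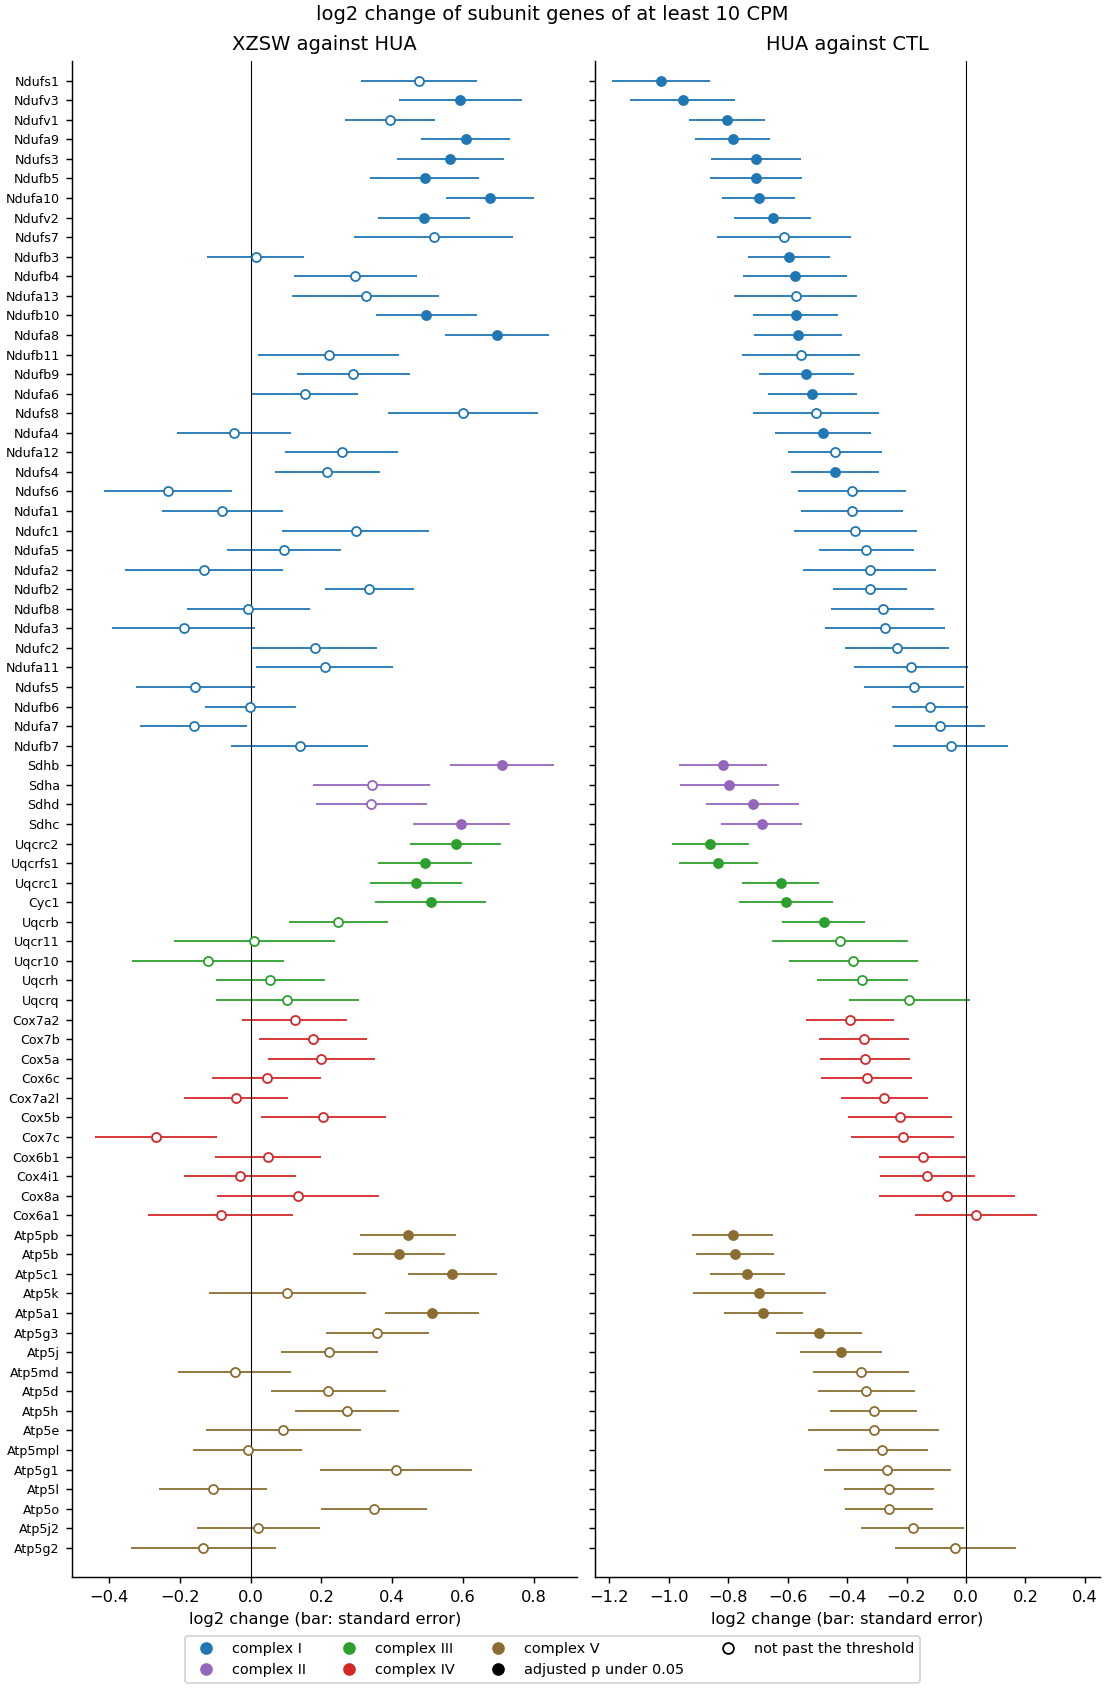
log2 change with standard error (bar, horizontal axis) of 76 subunit genes of at least 10 CPM, XZSW against HUA on the left and HUA against CTL on the right, ordered by complex and by change in HUA; filled points passed an adjusted p under 0.05. No complex IV gene is filled in either panel (with TMM scaling), and all filled points lie below 0 on the right and above 0 on the left.

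Among complex I genes, Ndufa10 had the clearest rise, with 282, 313, 266 and 263 CPM in XZSW and 173, 206, 149 and 175 CPM in HUA. All XZSW libraries were higher than all HUA libraries (log2 change 0.68, SE 0.12, adjusted p = 0.00409), and CTL averaged 285 ± 6.28 CPM. Ndufa8 rose by 0.70 (SE 0.15, adjusted p = 0.00813) and Ndufa9 by 0.61 (SE 0.13, adjusted p = 0.00752). The accessory genes Ndufv3, Ndufb10 and Ndufb5 rose by 0.59, 0.50 and 0.49. Of the catalytic core, Ndufv2 rose by 0.49 and Ndufs3 by 0.56. Ndufs1 and Ndufv1, with the largest falls of the core in HUA, had values of 0.48 (adjusted p = 0.0679) and 0.39 (adjusted p = 0.0535). Ndufs7 and Ndufs8 had values of 0.52 and 0.60 that did not pass.

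Sdhb stood at 227, 285, 307 and 303 CPM in XZSW and at 144, 216, 156 and 170 CPM in HUA. Its XZSW libraries were all above HUA, with XZSW1 the lowest (log2 change 0.71, SE 0.15, adjusted p = 0.00763). Sdhc rose by 0.59 (SE 0.14, adjusted p = 0.0125). Sdha and Sdhd both had values of 0.34 (adjusted p = 0.184 and 0.162). In complex III, Uqcrc2 averaged 446 ± 31.4 CPM in XZSW and 298 ± 46.0 CPM in HUA (log2 change 0.58, SE 0.13, adjusted p = 0.0109). Uqcrc1, Uqcrfs1 and Cyc1 rose by 0.47, 0.49 and 0.51, and of the 5 small subunits 0 were called.

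In complex V, Atp5a1 stood at 1487, 1761, 1758 and 1550 CPM in XZSW and at 1305, 1258, 1071 and 962 CPM in HUA (log2 change 0.51, SE 0.13, adjusted p = 0.0219). The lowest XZSW library was above the highest of HUA. Atp5c1 rose by 0.57 (adjusted p = 0.0102), Atp5pb by 0.45 (adjusted p = 0.0408) and Atp5b by 0.42 (adjusted p = 0.0461). Atp5b was at 1872 CPM in XZSW1 and at 2281 to 2335 CPM in the other XZSW libraries. The c ring genes Atp5g1, Atp5g2 and Atp5g3 had values of 0.41, -0.13 and 0.36 that did not pass.

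Complex IV values in XZSW against HUA had a median of 0.09 that flips to -0.08 with library totals. At an unadjusted p under 0.05, edgeR gave 1 of the 16 higher, against 14.2% of all genes, and 1 lower (Cox6b2, the 1 such subunit of all 82), DESeq2 called 1 higher, the muscle form Cox7a1, and limma called 0. Cox4i1 had -0.03 (SE 0.16), Cox5a 0.20, Cox5b 0.21 and Cox7c -0.27 (SE 0.17, adjusted p = 0.332). The count of 18 moved with the libraries in the fit. It was 7 without HUA3 or without XZSW3, 8 without XZSW4, 9 without XZSW2 and 11 without HUA4, and 22 without HUA2. The share of all genes that rose, 7.09% with all 12 libraries, moved as well. It was 3.48% without HUA3, 4.53% without XZSW3, 5.0% without XZSW4, 3.81% without XZSW2, 4.77% without HUA4 and 7.76% without HUA2. Without any 1 of the CTL libraries, 12 or 13 subunits rose, against 5.46 to 5.71% of all genes. Those libraries are not part of this comparison but of its fit. With only the 8 libraries of the comparison in the fit, 4 subunits rose, against 2.7% of all genes. Of the 15 called genes tallied under each left-out library, 7 stayed called in all 12 fits: Ndufa10, Ndufa8, Ndufa9, Sdhb, Sdhc, Uqcrc2 and Atp5c1. The called genes Ndufv3, Ndufb10 and Ndufb5 were not tallied.

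In XZSW against CTL, 1 subunit fell and 0 rose, against 2.27% of all tested genes that fell and 2.72% that rose. At an unadjusted p under 0.05, 19 were lower and 0 higher, against 10.2% of all genes lower and 12.9% higher. DESeq2 called 6 lower and 0 higher, against 5.1% of all genes lower, and limma called 0. The gene was Ndufb3, an accessory subunit of complex I, with 41.1, 44.7, 46.7 and 38.8 CPM in XZSW and 64.2, 64.3, 57.9 and 70.0 CPM in CTL. The groups did not overlap (log2 change -0.58, SE 0.14, adjusted p = 0.0333), and HUA averaged 42.4 ± 7.70 CPM. The call was lost in 8 of the 12 fits that left out 1 library, each of the 4 CTL and the 4 XZSW libraries in turn.

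Across all subunits the median log2 change of XZSW against CTL was -0.21, against 0.04 over all genes, and 71 of 82 values were below 0. With library totals the median was -0.04 and 46 were below 0. All 4 XZSW libraries lay below all 4 CTL libraries for 19 subunits, against 11.3% of all genes. Ndufs1 averaged 208 ± 17.8 CPM in XZSW and 304 ± 9.37 CPM in CTL (log2 change -0.55, adjusted p = 0.0686) and Ndufv1 234 ± 27.5 and 311 ± 14.1 CPM (-0.41, adjusted p = 0.078). Ndufs6 had -0.62 (adjusted p = 0.0668).

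The distance from CTL varied with the XZSW library. Over all subunits the median difference from the CTL mean was -0.47, -0.31, 0.02 and -0.12 in XZSW1 to XZSW4, and XZSW1 and XZSW2 are the libraries with the raised length slope. Without these and HUA1, 0 subunits fell, against 3.49% of all genes, and the median log2 change of the subunits was -0.05. Within the libraries of low GC slope, which leaves XZSW1, XZSW2, HUA1 and CTL, 38 fell, against 6.12% of all genes. All CTL libraries are of that kind, so kind of library and group cannot be fully told apart in comparisons with CTL.

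Subunits that fell in HUA were, in their medians, longer and more abundant than the rest. Their summed exon length had a median of 2181 bases, against 1237 for those not called, and their mean level a median of 215 CPM, against 86.3. Of 77 subunits of at least 10 CPM, 4 of 17 under 1000 bases fell, 8 of 30 from 1000 to under 2000 bases and 21 of 30 from 2000 bases. Over these 77 genes the log2 change had a Spearman correlation of -0.32 with exon length and -0.39 with level. Neither the length classes nor the correlations were worked out for all tested genes, of which 12.8% fell at any length. Whether such a gradient is particular to the subunits was thus not tested. Genes share the same 8 libraries here, so these counts and correlations are descriptions.

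**Figure D4:**
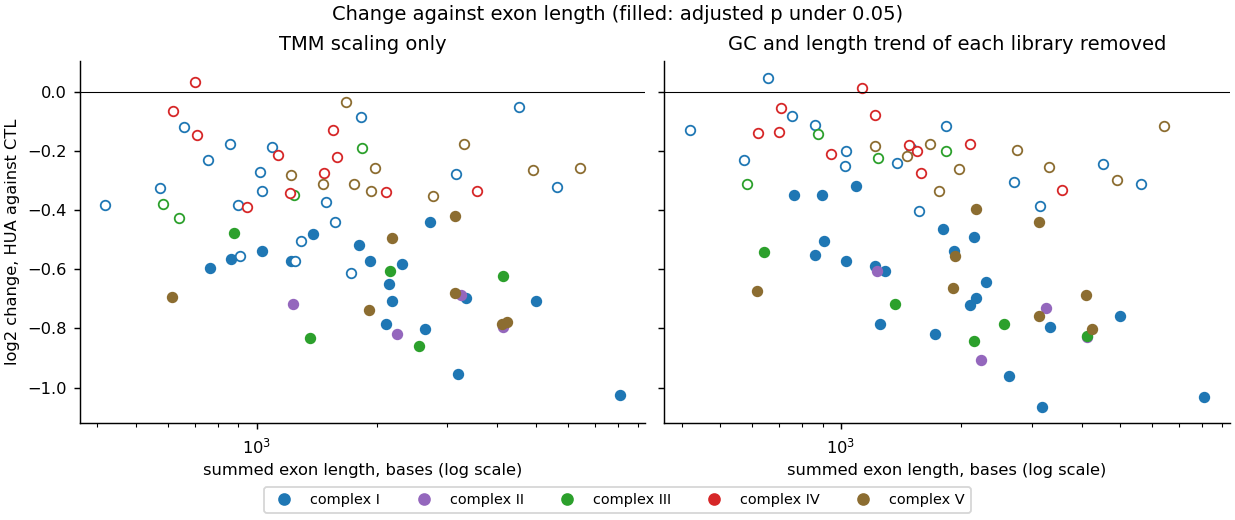
log2 change of HUA against CTL (vertical axis) against summed exon length in bases (log scale, horizontal axis) for the 77 subunit genes of at least 10 CPM, coloured by complex and filled where adjusted p was under 0.05. With TMM scaling alone (left) the Spearman correlation is -0.32, and with each library's GC and length trend removed (right) it is -0.47; complex IV genes sit near the top in both.

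Removing each library's trend over GC content and length, fitted on all genes, left 38 subunits that fell, against 16.3% of all genes. The 38 were 21 of complex I, 4 of complex II, 5 of complex III, 0 of complex IV and 8 of complex V. The correlation with length was -0.47. With length alone removed, 44 fell, 3 of them in complex IV, against 15.8% of all genes. With the kind of library as a term, 72 fell, against 11.1% of all genes, 10 of them in complex IV, and the correlation was -0.04; this fit leans on HUA1 for the distance from CTL. Complex IV genes were also the shortest, with a median of 944 bases over all 17, the rare forms included. Among genes of at least 10 CPM and under 2000 bases, 0 of 9 complex IV genes fell, against 12 of 38 of the other complexes. From 2000 bases it was 0 of 2 against 21 of 28. The part of length in these counts was not tested.

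Other mitochondrial gene groups give the setting. Of 13 protein genes of the mitochondrial genome, which supply the core of complexes I, III, IV and V, 11 fell in HUA against CTL, with a median log2 change of -0.83. In XZSW against HUA 12 of the 13 rose, with a median of 0.90. Of 18 genes of the tricarboxylic acid cycle and pyruvate dehydrogenase, 16 fell in HUA (median -0.75) and 11 rose in XZSW against HUA (median 0.46). Suclg1, a subunit of succinyl-CoA ligase, averaged 299 ± 27.8 CPM in XZSW, 198 ± 34.6 CPM in HUA and 395 ± 10.4 CPM in CTL. Cs, citrate synthase, did not pass (278 ± 9.70, 261 ± 15.6 and 271 ± 7.24 CPM in the same order).

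Of 14 genes of cytochrome c and coenzyme Q synthesis, 10 fell in HUA (median -0.70) and 3 rose in XZSW against HUA. The shares of all tested genes were 12.8% and 7.09%. Cycs, cytochrome c itself, averaged 424 ± 51.1 CPM in XZSW, 327 ± 63.3 CPM in HUA and 570 ± 77.1 CPM in CTL. It fell in HUA (log2 change -0.80, adjusted p = 0.00292). Coq9, needed to make coenzyme Q, fell by 1.17 on the log2 scale in HUA (adjusted p = 0.000512) and rose by 0.90 in XZSW against HUA (adjusted p = 0.0054).

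**Figure D5:**
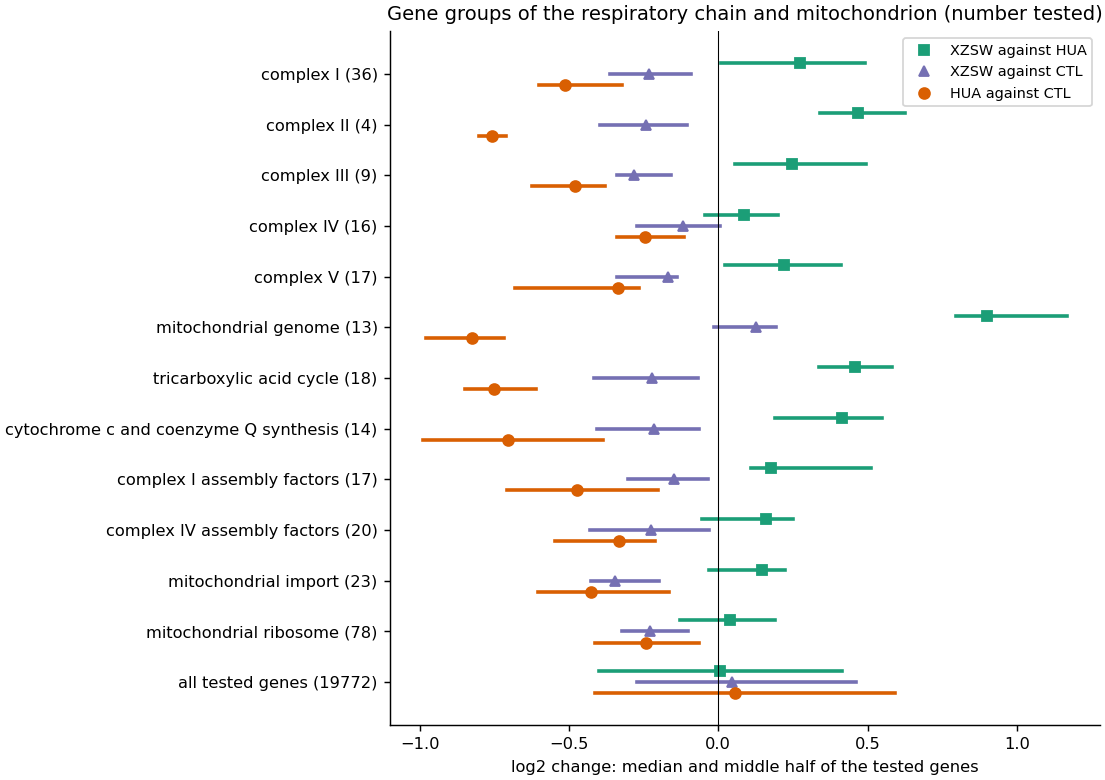
Median (symbol) and middle 50% (line) of the log2 changes of the tested genes of each complex and of other mitochondrial gene groups (horizontal axis), for XZSW against HUA, XZSW against CTL and HUA against CTL, with TMM scaling; numbers in brackets count tested genes. In HUA against CTL the medians run from -0.83 for the mitochondrial genome to -0.24 for complex IV and the mitochondrial ribosome, against 0.06 for all tested genes; with library totals the complex IV median is 0.09.

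Markers of cell types did not all move in 1 direction. Of all tested genes 12.8% fell and 14.9% rose in HUA against CTL, and 7.09% rose and 8.34% fell in XZSW against HUA. Of 8 proximal tubule markers 6 fell in HUA against CTL (median log2 change -1.57) and 6 rose in XZSW against HUA (median 1.16). Of 5 principal cell markers 3 fell in HUA (median -0.89) and 3 rose in XZSW against HUA (median 1.09), with a summed level of 489 to 1117 CPM in XZSW, 218 to 427 CPM in HUA and 554 to 600.2 CPM in CTL. Of 5 thick ascending limb markers 2 fell in HUA (median -1.17), and of 4 podocyte markers 2 rose (median 0.63). Of 5 intercalated cell markers 2 fell and 2 rose in HUA (median -0.14), and 3 rose in XZSW against HUA. Of 4 distal convoluted tubule markers 1 fell and 1 rose in HUA (median 0.01), and 2 rose in XZSW against HUA. Of 6 macrophage markers 4 rose in HUA and 3 fell in XZSW against HUA, with a summed level of 66.3 to 219.5 CPM in XZSW, 83.3 to 250 CPM in HUA and 67.4 to 109 CPM in CTL. Of 5 white adipocyte markers 3 were tested and 0 were called in any comparison. The 5 summed to 24.9 to 212.8 CPM in XZSW, 34.2 to 70.3 CPM in HUA and 52.0 to 96.8 CPM in CTL. Of 4 adrenal cortex markers 3 were tested and 0 were called. No marker of these lists was at 0 in every library. In whole kidney, fewer cells of a type and less RNA per cell cannot be told apart. The part of cell type in the subunit changes was not tested.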

How the data were processed

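Kidney RNA of 12 mouse libraries was measured, 4 each of XZSW, HUA and CTL. cutadapt 1.9, HISAT2 2.2.1 and the build GRCm38 are named in the submitters' processing notes. Which counter, annotation and filters were used is not given in the sources used here. Per the file headers, the table that the authors deposited holds, for each gene and library, 1 raw count and 1 FPKM value. Columns were matched to samples by the letter in the sample descriptions, N for HUA and M for XZSW, which no other label checks. If reads with several matches were shared with pseudogenes, low members are uncertain; the 9 pseudogene rows held at most 878 counts in a library.

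Counts were filtered with filterByExpr by group, given TMM factors of 0.856 to 1.15 and tested in 1 fit of all 12 libraries by the quasi-likelihood F-test of edgeR 4.0.16, with Benjamini-Hochberg adjustment over 19772 genes and calls at an adjusted p under 0.05. Rose and fell are used only of calls; SE is the log2 change over the root of F. CPM uses TMM factors; FPKM serves comparisons between genes. Exon lengths, GC content and positions come from GENCODE vM21 (GRCm38). Alternatives used limma 3.58.1 on log2(FPKM + 1) and log2(FPKM + 0.1), and DESeq2 1.42.0. Scripts ran in R 4.3.3 and Python 3.11.15 and were tested on simulated data. Replicate pairs differed beyond counting error (chi-square per degree of freedom 25.8 to 453), so none were merged.

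The subunit genes, the other gene lists and the tests were chosen with earlier results of these data known. Named are catalytic core subunits, the isoform sets, and in each complex and comparison the members with the smallest p and the largest change, 44 genes, plus some chosen after their values were seen: all other called members, members just over the threshold, other stalk genes of complex V, Ndufb7, Ndufa7, Cox6c, Cox7b and Cox6c2, and the non-members Suclg1, Cs, Cycs and Coq9. The values of 1 member are not reported here by name; it is part of the counts and medians.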

Additional observations from a re-analysis of the deposited data

Results flagged for a closer look

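Over 44 named genes in 3 groups of 4 libraries (132 groups), 7 had a library far from the other 3 (Dixon's test at the 95% level); chance alone gives about 5% of groups. Atp5b was at 1872 CPM in XZSW1, against 2281 to 2335 in the other XZSW libraries. Cox7b was at 160.7 CPM in HUA2, against 112.9 to 119.8 in the other HUA libraries, and at 147.6 CPM in CTL3, against 163.9 to 167.1 in the other CTL libraries. Cox7a2l was at 108.9 CPM in HUA4, against 81.6 to 84.05. Atp5g1 was at 72.17 CPM in CTL3, against 91.38 to 95.14. The muscle forms Cox6a2, at 1.207 CPM in HUA2, and Cox8b, at 0.4986 CPM in XZSW1, were at 0 in the other 3 libraries of their groups. Without HUA2, Cox7b and Cox6a2 fell in HUA against CTL. For Cox8b, the brown adipocyte markers, Ppargc1b among them, were also highest in XZSW1 among the XZSW libraries. Their part in the value was not tested.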

How the results depend on the processing

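In the low GC slope libraries alone, HUA1 is the only HUA library. There the median log2 change of the subunits in HUA against CTL was -0.73, against -0.01 over all genes. With all 12 libraries, 33 subunits fell in HUA against CTL. It was 13 with library totals, 12 and 13 with limma on log2(FPKM + 1) and log2(FPKM + 0.1), and 72 with kind of library as a term. Leaving out 1 library gave 24 to 36. Of all genes 12.8% fell with the main settings, 6.68% with library totals and 11.1% with kind of library as a term. The share was 7.15% and 7.48% with limma on FPKM with a pseudocount of 1 and 0.1, and 8.94 to 13.8% with 1 library left out. In XZSW against HUA, 18 rose; 6 did with library totals, 7 and 8 with limma on FPKM with a pseudocount of 1 and 0.1, 11 without a count filter, 4 with only the 8 libraries compared, 4 at an adjusted p under 0.01, 36 with kind of library as a term and 0 in the high GC slope libraries alone, where 0.0249% of all genes rose. Leaving out 1 library gave 7 to 22 that rose and 0 to 1 that fell. Of all genes 7.09% rose with the main settings, 4.23% with library totals, 2.98% without a filter and 2.7% with only the 8 libraries compared. The share was 5.99% and 5.91% with limma, 8.49% with kind of library as a term and 3.48 to 8.35% with 1 library left out. In XZSW against CTL, 1 fell; 0 did with library totals, without a filter, with limma on FPKM under either pseudocount, at an adjusted p under 0.01, and without the 3 libraries of raised length slope (an alternative added after the data were seen), 2 with GC and length trends removed, 3 with length removed, 6 with DESeq2, 12 with only the 8 libraries compared, 32 with kind of library as a term and 38 in the low GC slope libraries alone. Leaving out 1 library gave 0 to 3. Of all genes 2.27% fell with the main settings, 1.13% with library totals, 5.1% with DESeq2 and 7.27% with only the 8 libraries compared. The share was 3.5% with GC and length trends removed, 4.44% with length removed and 4.08% with kind of library as a term. With 1 library left out it was 0.244 to 3.57%. The cause of these moves was not tested.

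Signs turned, with the threshold passed under the alternative, for Cox6a1 in HUA against CTL, at -0.518 with kind of library as a term and -0.609 in the low GC slope libraries alone, and for Cox8a (-0.377) and Ndufs8 (-0.342) in XZSW against CTL in those libraries. Of 1159 values of named members in HUA against CTL, 1018 kept direction and side of the threshold, and 43 (12 genes, such as Cox4i1 from -0.478 to 0.208) changed sign while passing neither way; this was so for 58 of 1202 in XZSW against HUA and 103 of 1159 in XZSW against CTL. With the replicate number as a block, 38 fell in HUA against CTL, where 13.5% of all genes fell. In that fit 17 rose in XZSW against HUA, against 7.5% of all genes, and 1 fell in XZSW against CTL, against 2.06%. The correlation of deviations was -0.046 to 0.174 for same-numbered libraries and -0.168 to 0.104 for differently numbered ones. Whether the numbers pair libraries is not labelled, and these ranges do not settle it. Of the 33 calls in HUA against CTL, 23 were tallied under each left-out library. Among these 23, 21 were kept whichever library was left out. The tallied genes include those picked for the smallest p in each complex. The other calls were not tallied, and the count of all calls was 24 to 36 in these fits. Depth bears most on the rare forms, which had under 5 CPM on average, where few counts back each value.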

Other observations

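Regulators of mitochondrial genes did not move as 1 group. Of 20 tested, 7 fell and 2 rose in HUA against CTL (median log2 change -0.43), and 3 rose and 2 fell in XZSW against HUA. Of all tested genes 12.8% fell and 14.9% rose in HUA against CTL, and 7.09% rose and 8.34% fell in XZSW against HUA. Esrra, the estrogen-related receptor alpha, averaged 81.4 ± 11.9 CPM in XZSW, 37.0 ± 9.99 CPM in HUA and 78.2 ± 4.39 CPM in CTL (mean ± SD, n = 4). It fell in HUA (log2 change -1.08, adjusted p = 0.00109) and rose in XZSW against HUA (1.14, adjusted p = 0.00212). Ppargc1b, a PGC-1 coactivator, fell in HUA (-1.34, adjusted p = 0.00165) and rose in XZSW against HUA (1.06, adjusted p = 0.0123). Ppargc1a fell in HUA (-0.84, adjusted p = 0.0309), with 0.50 in XZSW against HUA that did not pass. Tfam, which packs and transcribes mitochondrial DNA, fell in HUA (-0.65, adjusted p = 0.001). The third coactivator, Pprc1, rose in HUA (1.58, adjusted p = 0.00115) and fell in XZSW against HUA (-0.84, adjusted p = 0.0478). Gabpb1, a partner of the ETS factor GABP, rose in HUA (0.71, adjusted p = 0.0164). Nrf1, Gabpa and Yy1 had values of 0.45, -0.41 and 0.00 that did not pass.

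Factors that build the complexes were also counted in HUA against CTL, where 12.8% of all tested genes fell and 14.9% rose. Of complex I assembly factors 10 of 17 fell (median -0.47), and of complex IV assembly factors 6 of 20 (median -0.33). Of those of complexes II, III and V, 2 of 4, 2 of 6 and 2 of 6 fell. In the list of complex III Uqcc2 rose in HUA (0.88, adjusted p = 0.0138) and fell in XZSW against HUA (-0.89, adjusted p = 0.0234). Of mitochondrial import genes 12 of 23 fell (median -0.42), and of mitochondrial ribosome genes 19 of 78 fell and 2 rose (median -0.24). In XZSW against HUA 5 genes of complex I assembly, 0 of complex IV assembly, 1 of import and 3 of the ribosome rose, against 7.09% of all tested genes, and 3 of the ribosome list fell.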
